A study of Bos taurus with 6 samples.

Results

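The ErbB family couples growth factors outside the hepatocyte to its kinase cascades, and 9 of its genes were followed here in cultures of primary bovine hepatocytes under palmitic acid. They are the receptors EGFR, ERBB2 and ERBB3, the EGFR ligands AREG, EREG, HBEGF, TGFA and BTC, and the feedback inhibitor ERRFI1. They were chosen by gene name in the deposited table of 36577 loci, each name had 1 locus, and all 9 passed the low-count filter, as 15576 genes did, which were then tested. Ligands are made as membrane proteins and released by proteases of the ADAM class. A bound receptor pairs with another, phosphorylates it and starts the RAS, MAP kinase and PI3 kinase cascades, while ERRFI1, which those cascades induce, binds the receptor's kinase domain and blocks it. ERBB2 binds no known ligand and ERBB3 has a weak kinase, so each acts mainly as a partner. In rodent liver, EGFR and its ligands are best known for their part in regeneration.

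The cells came from the livers of healthy, fasted female calves aged 1 day, with wild-type genotype, and grew in medium with 10% fetal bovine serum, itself a source of growth factors, after attachment in medium that also held insulin and dexamethasone. Palmitic acid (PA), a saturated fatty acid that stresses hepatocytes, was present at 400 µmol/L in both groups. The control group of 3 libraries, PA + DMSO, had solvent alone besides PA. The other 3 libraries, PA + 3-IAA, had indole-3-acetic acid (3-IAA), which forms when tryptophan is broken down, at 200 µmol/L. No cells without PA are among these samples, so every difference is between PA with 3-IAA and PA with solvent.

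Total counts were between 16580723 and 22562450 per library, and levels are given in CPM, the count normalised to library size. A count of 3 corresponds to 0.128 to 0.188 CPM on that scale, which covers counting error alone. Nothing in the labels ties a library to a calf or a culture, so the tests measure the spread between libraries, which may be technical. PA + DMSO replicate 3 stood apart: on the first principal component it lay at -11.9, against -39.7 and -39.4 for replicates 1 and 2 and 30.1 to 30.6 for PA + 3-IAA. Some results are therefore also given without it, while the counts of the pathway lists below include it. Hepatocyte markers were abundant in all libraries, with a summed level of 22009 to 25748 CPM over 10 genes in PA + DMSO and 33679 to 37175 CPM in PA + 3-IAA.

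With 3-IAA the ligand AREG fell 9.95-fold, EREG 1.79-fold and TGFA 1.54-fold, while the ligand BTC rose 1.60-fold. Among the receptors ERBB3 rose 1.64-fold and ERBB2 1.36-fold, and EGFR fell 1.22-fold. In edgeR's quasi-likelihood test 3 of the 9 genes were higher and 5 lower at a Benjamini-Hochberg adjusted p under 0.05 over all genes tested. This must be read against a background in which 51.2% of all tested genes passed, 25.4% as higher and 25.8% as lower. The remaining gene, ERRFI1, did not pass. The CPM values of the groups did not overlap for 8 of the 9, as for 62.5% of all genes. The median log2 fold change was -0.16 over the 9 genes and 0.00 over all genes tested. Without PA + DMSO replicate 3, 4 were higher and 5 lower, where 60.5% of all genes passed.

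**Figure D1:**
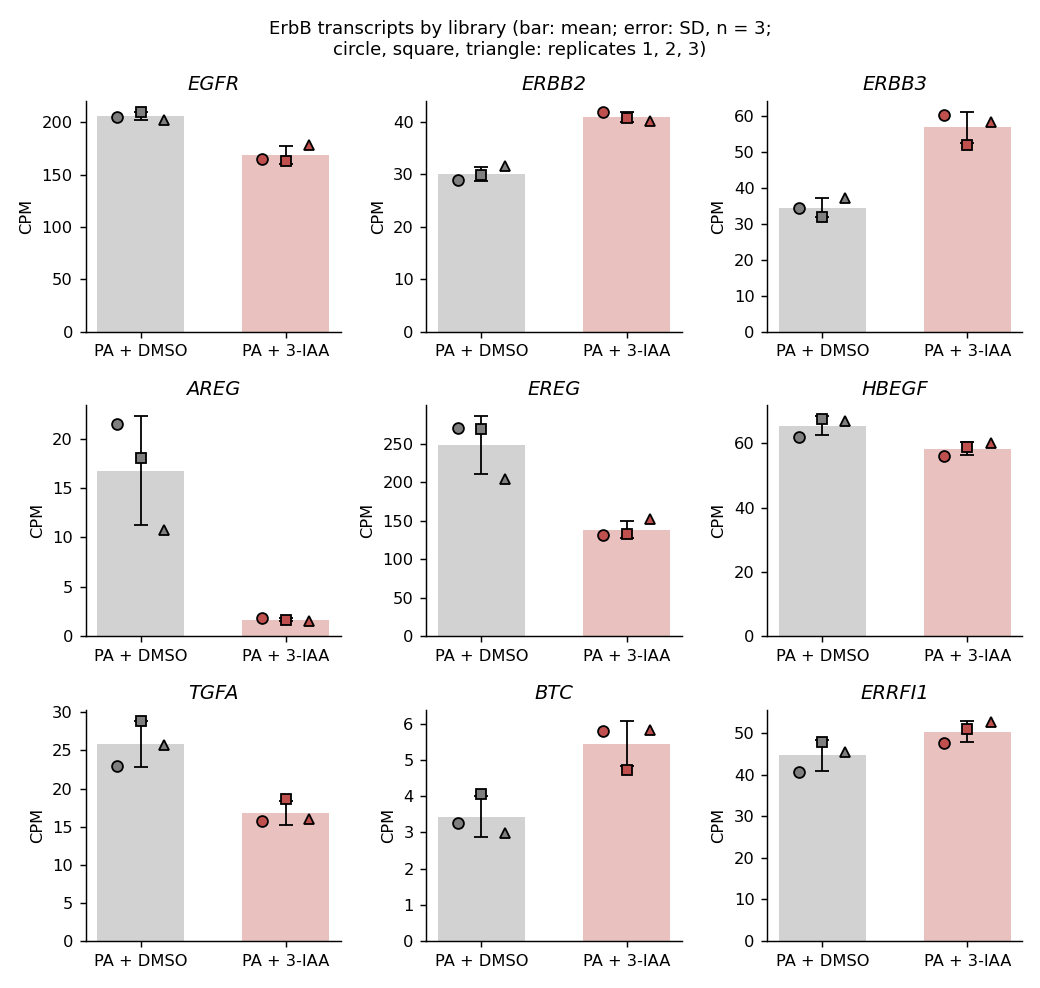
CPM of the 9 ErbB genes in each library, with the mean as a bar and the SD (n = 3) as an error bar; each panel has its own axis from 0. AREG drops from between 10.8 and 21.5 CPM to between 1.58 and 1.83 CPM, and the groups overlap only for ERRFI1.

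AREG encodes amphiregulin, a low-affinity EGFR ligand that damaged epithelia make. It stood at 21.5, 18.0 and 10.8 CPM in PA + DMSO replicates 1 to 3 and at 1.83, 1.61 and 1.58 CPM in PA + 3-IAA replicates 1 to 3. Every PA + DMSO library was above every PA + 3-IAA library, and PA + DMSO replicate 3 was the lowest of its group. The means were 16.8 ± 5.48 CPM (SD, n = 3) and 1.68 ± 0.14 CPM, and the log2 fold change was -3.32 (SE 0.29, edgeR adjusted p = 0.000141). Of 15576 genes tested, 48 had a lower log2 fold change. The PA + 3-IAA values rest on 34 to 43 counts per library, against 213 to 436 in PA + DMSO. Leaving out PA + DMSO replicate 3 gave a log2 fold change of -3.56, the most negative of the 15 alternatives, and the least negative was -2.84 on log2(TPM + 1).

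EREG encodes epiregulin, a broad-acting ligand of EGFR and ERBB4. It had the highest CPM of the 5 ligands, at 270.3, 269 and 205 CPM in PA + DMSO and 131, 132 and 152 CPM in PA + 3-IAA. The groups did not overlap, and PA + DMSO replicate 3 again lay nearest to PA + 3-IAA. The log2 fold change was -0.84 (SE 0.11, adjusted p = 0.000538 by edgeR), and -0.96 without that library. Measured on the log2 CPM scale from the mean of PA + DMSO replicates 1 and 2 to that of PA + 3-IAA, replicate 3 was 41.2% of the way for EREG and 24.5% for AREG. It was 12.1% to 21.4% of the way for EGFR, ERBB2, ERBB3 and ERRFI1, and 0.51% for TGFA. For HBEGF (-32.4%) and BTC (-50.0%) it lay on the far side, away from PA + 3-IAA.

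TGFA encodes transforming growth factor alpha, a mitogen that rodent hepatocytes themselves produce. It was at 22.9, 28.9 and 25.7 CPM in PA + DMSO and 15.7, 18.6 and 16.0 CPM in PA + 3-IAA. The groups did not overlap, and PA + DMSO replicate 3 lay between the other two of its group. Its log2 fold change was -0.62 (SE 0.10, adjusted p = 0.00107 by edgeR).

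HBEGF encodes heparin-binding EGF-like growth factor, a ligand of EGFR and ERBB4. Its levels were 62.0, 67.4 and 66.8 CPM in PA + DMSO and 56.1, 58.9 and 59.9 CPM in PA + 3-IAA. The groups lay close together without overlap. The log2 fold change was -0.16 (SE 0.06, adjusted p = 0.0433 by edgeR), a fall of 1.12-fold. This call did not hold in 10 of 15 alternatives, where the adjusted p was up to 0.204. Among them were DESeq2 (adjusted p = 0.0939), scaling by library total (0.204), and the fits without PA + DMSO replicate 2 (0.135) or without PA + 3-IAA replicate 1 (0.167), 2 (0.098) or 3 (0.0767).

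BTC encodes betacellulin, another ligand of EGFR and ERBB4, and was the ligand that moved the other way. It was at 3.26, 4.07 and 2.98 CPM in PA + DMSO and 5.80, 4.73 and 5.83 CPM in PA + 3-IAA, on 59 to 136 counts per library. All PA + 3-IAA libraries were above all PA + DMSO libraries. The log2 fold change was 0.68 (SE 0.16, adjusted p = 0.00665 by edgeR), and it stayed between 0.48 and 0.80 in the alternatives.

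The ligands were also compared as shares of their summed level. In the authors' TPM (abundance per transcript length, scaled to the same total in each library), the 5 ligands summed to 221 ± 25.7 TPM (SD, n = 3) in PA + DMSO and 141 ± 6.90 TPM in PA + 3-IAA. The lowest PA + DMSO library had 191 TPM and the highest PA + 3-IAA library 149 TPM. AREG made up 11.5% ± 2.71 of that sum in PA + DMSO and 1.86% ± 0.21 in PA + 3-IAA. The share of EREG was 51.3% ± 2.72 and 45.8% ± 1.75, and that of HBEGF 32.1% ± 4.76 and 46.1% ± 1.46. BTC made up 0.69% ± 0.08 and 1.78% ± 0.19. The share of TGFA was 4.39% ± 0.73 and 4.37% ± 0.33, and its groups overlapped. For EREG and AREG, the ratio of counts in the same library lay between 12.6 and 19.0 in PA + DMSO and between 71.7 and 95.7 in PA + 3-IAA.

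In PA + DMSO the order of ligand levels in TPM was EREG (114 ± 18.8), HBEGF (70.0 ± 2.45), AREG (25.9 ± 8.61), TGFA (9.58 ± 1.10) and BTC (1.52 ± 0.25). In PA + 3-IAA it was HBEGF (65.2 ± 1.44), EREG (64.9 ± 5.63), TGFA (6.16 ± 0.18), AREG (2.63 ± 0.25) and BTC (2.51 ± 0.33). There HBEGF and EREG overlapped between libraries, as did AREG and BTC. These orders depend on the transcript length behind the TPM. Relative to the median gene, the length implied by the ratio of counts to TPM was 5.14 times the listed length for TGFA, 2.0 times for EREG and 0.73 times for AREG. On counts per base of the listed length, scaled to that same total, TGFA (57.8) lay above AREG (22.6) in PA + DMSO too, and EREG (159.9) above HBEGF (71.6) in PA + 3-IAA. There BTC (2.78 to 3.53 by library) also lay above AREG (2.25 to 2.66), without overlap. That scale was chosen after seeing the data. On it the share of AREG was 5.19% ± 1.29 in PA + DMSO and 0.87% ± 0.11 in PA + 3-IAA. The share of HBEGF there was 17.9% ± 2.48 and 25.9% ± 0.63, and that of BTC 0.45% ± 0.04 and 1.18% ± 0.14. TGFA made up 13.6% ± 1.99 and 14.4% ± 1.55. For EREG it was 62.9% ± 3.06 and 57.7% ± 2.08, and the groups overlapped (59.6% to 65.7% and 55.7% to 59.9% by library). The sizes of these shares thus depend on the length used.

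**Figure D2:**
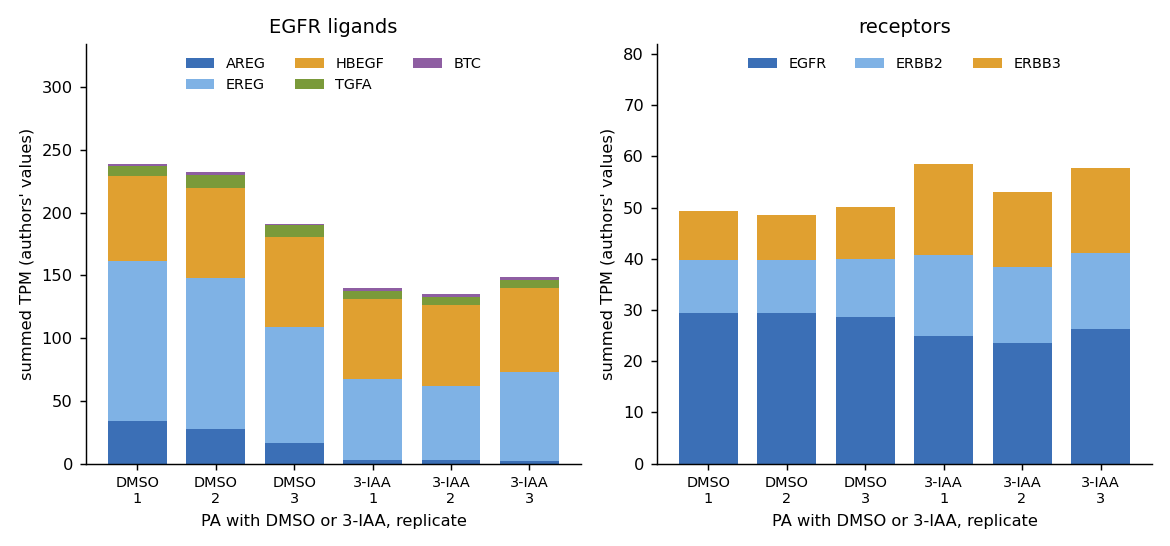
Summed TPM of the 5 EGFR ligands (left) and 3 receptors (right) in each library, stacked by gene. The ligand sum is 191 to 239 TPM in PA + DMSO and 135 to 149 TPM in PA + 3-IAA, and the receptor sum 48.6 to 50.2 and 53.0 to 58.5 TPM.

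Of the receptors, ERBB3 changed most. This receptor, which signals to PI3 kinase, was at 34.5, 32.0 and 37.2 CPM in PA + DMSO and 60.2, 51.9 and 58.3 CPM in PA + 3-IAA. The lowest PA + 3-IAA library was well above the highest PA + DMSO library. The log2 fold change was 0.72 (SE 0.08, adjusted p = 0.000143 by edgeR). ERBB2, the partner without a ligand, was at 28.9, 29.8 and 31.5 CPM in PA + DMSO and 41.9, 40.7 and 40.1 CPM in PA + 3-IAA, again without overlap. Its log2 fold change was 0.44 (SE 0.06, adjusted p = 0.000429).

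EGFR, the receptor that all 5 ligands bind, moved in the opposite direction by a smaller step. It was at 205, 210.0 and 202 CPM in PA + DMSO and 165, 163 and 179 CPM in PA + 3-IAA. The 3 PA + DMSO libraries were close to each other and above all PA + 3-IAA libraries. The log2 fold change was -0.28 (SE 0.06, adjusted p = 0.00296 by edgeR), and it ranged from -0.33 to -0.21 in the alternatives, with an adjusted p of at most 0.0223. Within a library, the ratio of ERBB3 to EGFR counts lay between 0.152 and 0.184 in PA + DMSO and between 0.318 and 0.365 in PA + 3-IAA, a ratio that no scaling between libraries affects. The ratio of ERBB2 to EGFR counts was 0.141 to 0.156 and 0.225 to 0.254.

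In TPM, EGFR was the most abundant receptor of the 3 in both groups. It was at 29.1 ± 0.43 TPM in PA + DMSO, where ERBB2 (10.7 ± 0.55) and ERBB3 (9.53 ± 0.77) followed. In PA + 3-IAA it was at 24.9 ± 1.29 TPM, and ERBB3 (16.4 ± 1.56) and ERBB2 (15.1 ± 0.64) overlapped between libraries. The share of EGFR in the summed receptor TPM was 59.1% ± 1.80 in PA + DMSO and 44.2% ± 1.43 in PA + 3-IAA. By listed length those shares were 78.6% ± 1.2 and 66.8% ± 1.32, since the implied length of EGFR was 2.53 times the listed one. The summed receptor level separated the groups on the authors' TPM but not by listed length. On the latter scale the PA + DMSO libraries, at 112.5 to 114.2, lay within the range of the PA + 3-IAA libraries, 109.5 to 119.8.

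ERRFI1, also called MIG6, is the feedback inhibitor of the group. It was at 40.7, 47.9 and 45.4 CPM in PA + DMSO and 47.6, 50.9 and 52.7 CPM in PA + 3-IAA. The groups overlapped, since PA + DMSO replicate 2 was above PA + 3-IAA replicate 1. The log2 fold change was 0.18 (SE 0.08, adjusted p = 0.0758 by edgeR), and the 95% interval of the fold change was 1.01 to 1.27. ERRFI1 passed the test as higher without PA + DMSO replicate 3 (log2 0.19, adjusted p = 0.0142) and with scaling by library total (log2 0.25, adjusted p = 0.0161).

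**Figure D3:**
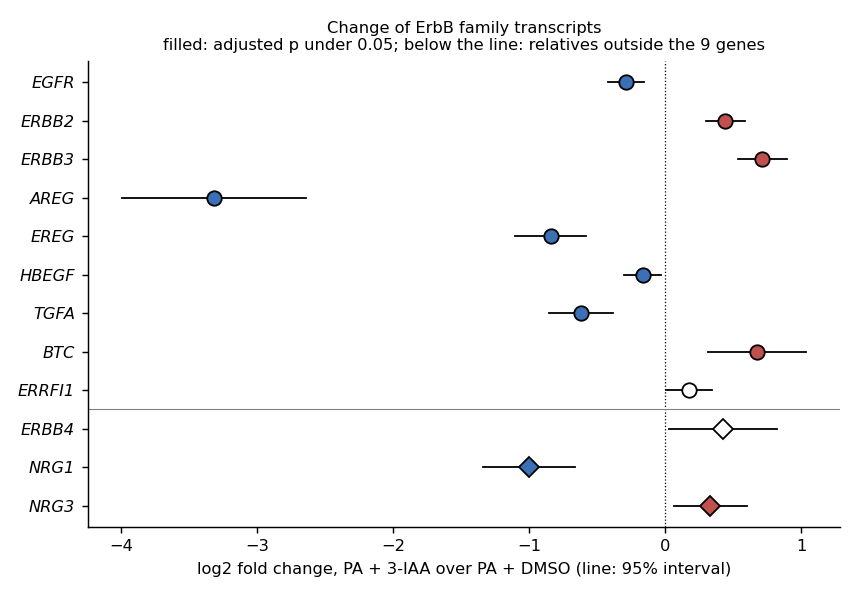
Log2 fold change of each ErbB gene, PA + 3-IAA over PA + DMSO, with its 95% interval from edgeR; filled symbols passed an adjusted p under 0.05. AREG lies at -3.32, apart from the other 8 genes between -0.84 and 0.72.

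In the authors' deposited table AREG (log2 -3.33), EREG (-0.85) and TGFA (-0.63) are marked as down and ERBB3 (0.71) and BTC (0.67) as up. That table marks ERBB2, EGFR, HBEGF and ERRFI1 as stable. The adjusted p in the authors' deposited table was 5.82e-06 for ERBB2 (log2 0.44) and 0.000252 for EGFR (log2 -0.29). Both changes were smaller in size than those of the genes marked as up or down.

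Relatives outside the 9 genes were measured as well. NRG1, which encodes a neuregulin that binds ERBB3 and ERBB4, was at 8.09, 6.77 and 6.17 CPM in PA + DMSO and 3.88, 3.17 and 3.45 CPM in PA + 3-IAA. It fell 2.0-fold without overlap (log2 -1.0, SE 0.15, adjusted p = 0.000575 by edgeR). A separate locus with the same name held at most 1.68 counts per library. NRG3, an ERBB4 ligand, was at 12.4, 10.3 and 13.8 CPM and at 13.9, 16.5 and 15.8 CPM, and passed as higher (log2 0.33, SE 0.12, adjusted p = 0.0408), a call that depended on single libraries. It was lost without PA + DMSO replicate 1 (adjusted p = 0.0817) or 2 (0.14), without PA + 3-IAA replicate 2 (0.141) or 3 (0.114), and by DESeq2 (0.052). ERBB4, the remaining receptor, had 33.8 to 57.1 counts per library and did not pass (adjusted p = 0.0687 by edgeR for a log2 fold change of 0.43). For NRG3 and ERBB4 the implied length was 0.057 and 0.055 times the listed one relative to the median gene, so their TPM cannot be set beside those of the other genes. EPGN had 3 to 7 counts per library, NRG2 3 to 10 and NRG4 0 to 2, too few to be tested, and EGF had 0 counts in all 6 libraries, which allows up to 0.128 to 0.188 CPM.

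Several ligand genes are neighbours. In the RefSeq gene table of assembly ARS-UCD2.0, which matched all 9 genes by gene ID and places them on 7 chromosomes, the protein-coding genes run in the order GRO1, MTHFD2L, EPGN, EREG, AREG, BTC, PARM1 and RCHY1. The assembly behind the counts is not given in the sources used here, so no coordinates are printed. The log2 fold changes in this order were -1.33 for GRO1 (adjusted p = 0.000522 by edgeR), 0.00 for MTHFD2L (adjusted p = 0.988 by edgeR), untested for EPGN, -0.84 for EREG, -3.32 for AREG, 0.68 for BTC, 0.22 for PARM1 (adjusted p = 0.0211) and -0.17 for RCHY1 (adjusted p = 0.0475). GRO1 is one of a family of similar chemokine genes, which may share reads. PARM1 no longer passed when replicate 1 or 2 of PA + DMSO was left out, or replicate 1 or 3 of PA + 3-IAA, with an adjusted p of 0.065 to 0.096. RCHY1 no longer passed without PA + DMSO replicate 1 (adjusted p = 0.13), without PA + 3-IAA replicate 1 (0.161), 2 (0.0563) or 3 (0.147), or by DESeq2 (0.103). Nor did RCHY1 pass with scaling by library total (0.244), log2(TPM + 1) (0.23), log2(TPM + 0.1) (0.229), no filter (0.0952) or the replicate block (0.0897). The neighbours AREG and BTC thus moved in opposite directions, and EREG and AREG fell by different amounts.

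The genes nearest to AREG in pattern, by the root mean square distance of log2 CPM centred over the 6 libraries, were CCDC39 (distance 0.059, log2 fold change -3.38), HSP90B1 (0.111, -3.45) and BHLHA15 (0.112, -3.41). HSP90B1 encodes an endoplasmic reticulum chaperone and BHLHA15 a transcription factor of secretory cells. The median distance to AREG over 10100 named genes with a mean of at least 5 CPM was 1.67. For EREG the nearest were MARCKS (0.030), PLEKHA7 (0.031) and BLOC1S3 (0.032), against a median of 0.458. For ERBB3 they were CCND1 (0.038), CMPK2 (0.048) and PTPN5 (0.049), against a median of 0.385. CCND1 encodes cyclin D1, a cell cycle regulator. For TGFA they were IER5 (0.046), VSTM4 (0.067) and PIM2 (0.073), against a median of 0.359. With 2 groups, these distances mostly reflect the size of the difference between the groups.

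The release of ligands depends on proteases, and 3 of 8 tested genes of this list passed, 2 higher and 1 lower, with a median log2 fold change of 0.06. That is 37.5%, below the 51.2% of all genes. ADAM17, which in mouse cells is the main protease that releases AREG, EREG, TGFA and HBEGF, fell 1.35-fold, from 112 ± 5.74 to 83.1 ± 2.34 CPM (adjusted p = 0.000391 by edgeR). ADAM10, which releases BTC in mouse cells, rose 1.36-fold, from 83.4 ± 9.92 to 113 ± 3.54 CPM (adjusted p = 0.00183). The rhomboid protease RHBDL2 rose 1.69-fold at a low level of 1.42 ± 0.25 to 2.39 ± 0.34 CPM (adjusted p = 0.0156). It did not pass without PA + DMSO replicate 1 (adjusted p = 0.0636) or PA + 3-IAA replicate 1 (0.0589) or 2 (0.0543).

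Adaptors and RAS exchange factors, which carry the signal away from the receptor, had 10 loci lower and 2 higher of 16 tested (75.0%), with a median of -0.23. The adaptor SHC1 fell 1.61-fold, from 177 ± 16.2 to 110 ± 3.86 CPM (adjusted p = 0.000125 by edgeR). The docking protein GAB2 fell 2.35-fold (adjusted p = 0.000149). CBLC, a ubiquitin ligase of the family that marks receptors for breakdown, rose 2.68-fold from 2.41 ± 0.48 CPM (adjusted p = 0.000143), whereas its relative CBLB changed by -1.33 on the log2 scale (named after its value was seen). CRKL has 2 loci of that name, which may share reads.

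In the RAS and MAP kinase cascade 5 of 13 genes were lower and 2 higher, with a median of -0.05. The 53.8% that passed is close to the 51.2% of all genes. RPS6KA1, a kinase downstream of ERK, rose 1.52-fold (adjusted p = 0.00214 by edgeR). This count depends on the test: 7 genes passed here, 4 by DESeq2, 3 on the TPM scale, and 4 without any single PA + 3-IAA library. Of 10 genes of PI3 kinase and AKT, 3 were higher and 4 lower (70.0%), and the median was -0.10. The regulatory subunit PIK3R1 rose 1.71-fold, and the catalytic subunit PIK3CA and the kinase PDPK1 fell 1.53-fold and 1.44-fold (adjusted p = 8.32e-05, 0.000299 and 0.000179).

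Feedback inhibitors of ErbB and ERK signalling other than ERRFI1 had 10 lower and 3 higher of 17 tested (76.5%), with a median of -0.30. DUSP6, a phosphatase that inactivates ERK and is itself induced by it, went from 432 ± 45.0 to 242 ± 16.6 CPM, a fall of 1.78-fold (adjusted p = 0.000107 by edgeR). SPRED1 and SPRY4, which restrain RAS activation, fell 1.56-fold and 1.51-fold (adjusted p = 0.000105 and 0.000181). The 3 that rose were SPRY2, PTPN1 and SPRED3 (named after their values were seen). Of the receptor endocytosis and sorting list 7 of 14 were lower and 1 higher (57.1%, near the background), and the median was -0.15. The early endosome GTPase RAB5A fell 1.64-fold, the sorting adaptor STAM 1.72-fold and the CBL-binding adaptor SH3KBP1 1.5-fold (adjusted p = 8.03e-05, 0.000128 and 0.00127).

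Genes that ERK induces early moved both ways, with 7 of 15 higher, 6 lower (86.7% in all) and a median of -0.19. ETV5 fell 1.85-fold, from 32.6 ± 5.18 to 17.6 ± 0.90 CPM, while its close relative ETV4 rose 1.59-fold, from 11.5 ± 1.30 to 18.3 ± 1.15 CPM (adjusted p = 0.000288 and 0.000673 by edgeR). IER2 fell 1.51-fold (adjusted p = 0.000252). Over all these pathway lists, relatives included, 21 loci were higher and 44 lower of 96 tested, with a median of -0.12 and 67.7% passing, beside 51.2% of all genes. The lists were not matched to all genes in level, and the share that passes depends on it. With a filter of at least 1 CPM in all 6 libraries, 7487 of 13086 genes passed. Among 175 tested loci that the deposited annotation assigns to the ErbB signalling pathway, without the 9 genes, 35 were higher and 66 lower, or 57.7%, with a median of -0.08. This list was taken after seeing the data.

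**Figure D4:**
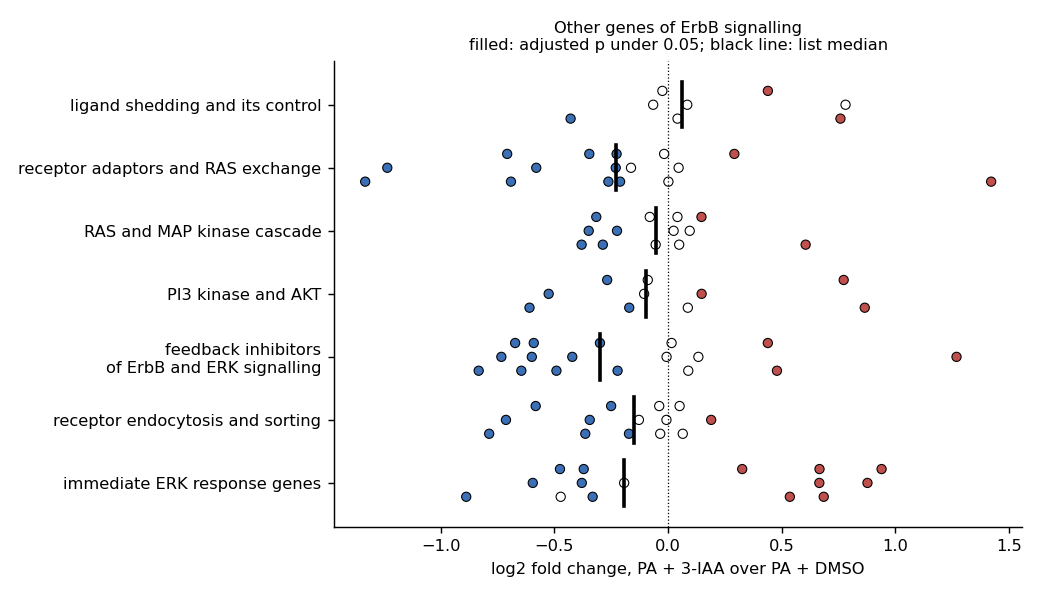
Log2 fold change of each tested gene in 7 lists of ErbB signalling, PA + 3-IAA over PA + DMSO, with the list median as a black line; filled points passed an adjusted p under 0.05. Adaptors (median -0.23) and feedback inhibitors (median -0.30) hold 10 lower loci each.

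Markers of other cells that a hepatocyte culture can hold were measured too, and in bulk RNA fewer cells of a type and less RNA per cell cannot be told apart. Markers of biliary epithelium, which also expresses ErbB receptors, had 4 higher and 1 lower of 9 tested (55.6%, near the 51.2% of all genes). Their summed level was 576 to 742 CPM in PA + DMSO and 1071 to 1139 CPM in PA + 3-IAA. Most of that sum was SPP1, at 443 ± 64.0 and 804 ± 40.2 CPM (adjusted p = 0.00019 by edgeR). SOX9, the marker that was lower, fell 1.98-fold (adjusted p = 0.000171 by edgeR), and KRT19 and EPCAM did not pass. Endothelial markers had 4 higher and 2 lower of 9 (66.7%), and summed to 68.5 to 118 and 147 to 162 CPM. Macrophage markers had 5 higher and 0 lower of 9 (55.6%), and summed to 96.7 to 132 and 182 to 189 CPM. Most of that gap was CD14, a receptor for bacterial lipopolysaccharide, at 28.6 ± 18.4 and 91.2 ± 3.73 CPM (adjusted p = 0.034 by edgeR), a call lost without any single library other than PA + DMSO replicate 3 (adjusted p = 0.0719 to 0.092). Without CD14 the macrophage sums were 78.1 to 82.5 and 91.3 to 98.0 CPM. Markers of stellate cells and fibroblasts had 2 higher and 3 lower of 8 (62.5%), with sums of 2989 to 3742 and 3803 to 4076 CPM. Of these ACTA2, which encodes smooth muscle actin, rose from 613 ± 203 to 1373 ± 43.8 CPM (adjusted p = 0.00708 by edgeR), and without it the sums overlapped, at 2514 to 2897 and 2480 to 2683 CPM. The other higher marker was DES (1.21-fold, adjusted p = 0.0274 by edgeR). The lower ones were PDGFRA (2.36-fold, adjusted p = 6.66e-05), PDGFRB (1.73-fold, 0.000208) and DCN (1.18-fold, 0.0382). SPP1, SOX9, KRT19, EPCAM, CD14, ACTA2, DES, PDGFRA, PDGFRB and DCN were singled out after their values were seen. Mesothelial markers had 1 higher of 3 (33.3%) and summed to 3.07 to 5.31 and 5.63 to 6.11 CPM, with LRRN4 and CALB2 at 0 counts. No marker of the other lists was at 0 in all libraries. Hepatocyte markers themselves had 9 of 10 higher (90.0%). The part of these differences in the ErbB results was not tested.

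**Figure D5:**
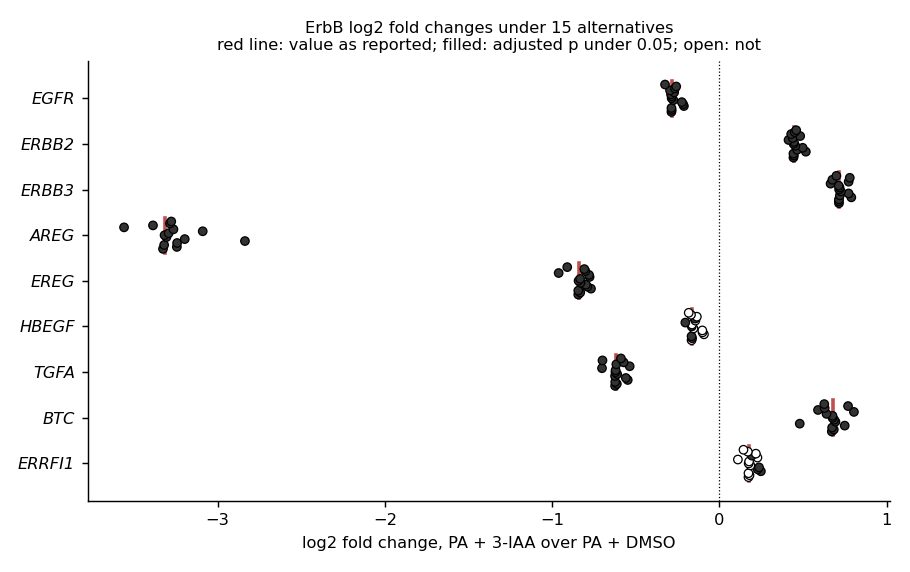
Log2 fold change of each ErbB gene under 15 alternatives (points) and as reported (red line); open points did not pass an adjusted p under 0.05. HBEGF (10 alternatives without the call) and ERRFI1 (4 with it) are the genes whose call changes, and no gene changes direction.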

How the data were processed

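Polyadenylated RNA of 6 libraries, 3 a group, was sequenced. Per the submitters' processing notes, cutadapt 1.9, HISAT2 2.2.1, RSEM and DESeq2 were used, with no roles stated. Genome build, annotation and use of strand in counting are not given in the sources used here. Expected counts, that is estimated reads, make up the deposited table, beside TPM per library, group means and a length per locus. Between 17.2% and 19.0% of a library's expected counts had a fractional part. The table came with 2 emptied lines, not analysed here. The authors' deposited comparison gives a mean normalized signal, log2 fold change, Wald score and p-value per gene. Only its fold changes, adjusted p-values and marks are quoted.

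Expected counts were rounded and tested with edgeR 4.0.16 in R 4.3.3 (filterByExpr, TMM scaling and the two-sided quasi-likelihood test with robust estimation). P-values were Benjamini-Hochberg adjusted over 15576 genes, with a threshold of 0.05. CPM uses TMM library sizes, and each SE was computed as the absolute log2 fold change over the square root of F. Alternatives used DESeq2 1.42.0 and limma 3.58.1 (voom, or log2(TPM + 1) and log2(TPM + 0.1)), other scalings, other filters (none beyond a total above 0, or at least 1 CPM in all 6 libraries), a replicate block and leaving out each library. Several of the fits were also run on simulated counts, where few genes changed and no library was set apart from its group. The real data differ in both, so that run cannot show how the fits behave on them. Replicate pairs differed by more than sampling noise (chi-square of 2.88 to 34.6 per gene, where noise gives about 1), so no library was counted as a duplicate.

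The 9 genes and all lists were chosen with earlier results of these data known, so lists are described by counts and medians without a test. Named beside the 9 genes were all other receptors and ligands, up to 3 tested genes per list with the smallest p, and, for genes with a mean of at least 1 CPM, the 3 genes nearest in pattern, of which 4 sets are reported. Some genes that this rule takes are not reported.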

Additional observations from a re-analysis of the deposited data

How the results depend on the processing

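The direction of all 9 ErbB genes was the same in the 15 alternatives, and 7 of them (all but HBEGF and ERRFI1) passed the threshold in each. HBEGF (log2 -0.16) no longer passed with DESeq2 (-0.17), scaling by library total (-0.093), log2(TPM + 1) (-0.10), log2(TPM + 0.1) (-0.10), the replicate block (-0.16) or no filter (-0.16), and ranged from -0.20 to -0.14 when 1 library was left out. ERRFI1 (0.18) passed with scaling by library total (0.25), log2(TPM + 1) (0.23) and log2(TPM + 0.1) (0.24), and ranged from 0.11 to 0.23 when 1 library was left out. Scaling by library total moved the median of all genes to 0.07. The cause was not tested.

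Of the other ligands, 2 passed, against 1 with DESeq2, either TPM fit or the replicate block, and 1 to 2 when 1 library was left out. ERBB4 passed (1 gene in place of 0) with scaling by library total, either TPM fit or the strict filter. In the RAS and MAP kinase cascade 7 genes passed, against 4 with DESeq2 or no filter, 3 with either TPM fit, and 4 to 6 when 1 library was left out. The counts of the other lists, of the 9 genes and of all genes stayed within 1.5 times.

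The labels do not say that same-numbered libraries belong together. Their deviations from the group means correlated at 0.01 to 0.05, and 5 of 6 libraries correlated best with their own number. Correlations this weak, on 3 libraries a group, cannot decide whether same-numbered libraries share a calf or a culture. With the replicate block 7489 genes passed, against 7978 without it. Depth limits AREG and BTC most among the 9 genes, since AREG has 34 to 43 counts in PA + 3-IAA.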
